A study of Mus musculus with 11 samples.

Results

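10 genes of the extracellular matrix and of mesenchymal cells, Fn1, Efemp1, Sparc, Ibsp, Mgp, Serpinh1, Serpine2, Ptn, Vim and Scara3, were followed across 11 libraries of mouse AKP colon cancer organoids. They are 10 of the 23224 gene names in the deposited count table. They were picked by name for presence in each tumour-derived library against near-zero counts in naive organoids. Their levels in tumour-derived over naive organoids are therefore given as a description, without a test. The near-zero naive counts did not hold for 4 of them. Fn1, Mgp, Ptn and Vim were above 1 CPM (counts scaled to library size) in each of the 3 naive libraries, and the other 6 had at most 2 counts in any naive library. Nearest to the limit among the near-silent genes was Sparc, with 0, 1 and 2 naive counts, and among the others Fn1, with 49, 60 and 57. Presence in each tumour-derived library did not hold for Efemp1, Sparc, Ibsp, Serpine2 and Ptn. They had more than 3 counts in 3, 4, 4, 5 and 5 of the 6 tumour-derived libraries.

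Epithelial cells rest on a thin basement membrane, whereas mesenchymal cells such as fibroblasts fill the stroma with fibronectin, collagens and the proteins that process and mineralise them. Carcinoma cells can take up some of these genes, together with the intermediate filament vimentin, in what is called epithelial-mesenchymal transition. In gut tumours most matrix is made by stromal fibroblasts, so cultures that hold cancer cells alone show what the cancer cells themselves transcribe.

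AKP organoids are tumour-like cultures grown in 3 dimensions. AKP is the name the labels give to the organoids of every group. The RAG2KO group (3 libraries) and the C57Bl6 group (3 libraries) came from naive organoids placed in the colon by colonoscopy. The primary tumours were grown back as organoids and passaged until, per the submitters, no cells but cancer cells were left. RAG2KO mice, which lack a recombinase that T and B cells need, are immunodeficient, and C57Bl6 mice are immunocompetent. A constitutive and a dox-inducible SOX17OE line, naive organoids given a SOX17 construct by lentivirus, had 1 library each. Whether dox was given to the inducible line, the promoter of each construct, and the ages and times of the mice were not stated in the labels. The 3 naive libraries had neither transplantation nor construct. Each tumour title carries a number of its own, but nothing says that replicates came from separate mice or cultures, so p-values measure only the spread between these samples.

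Library totals ranged from 14109182 to 22154456 expected counts. Levels are CPM after TMM scaling, and with totals of this size 3 counts, taken as the floor, stood for 0.132 to 0.214 CPM. Sox17 had 22.2, 15.4 and 24.4 CPM in the RAG2KO, 18.4, 12.4 and 74.3 CPM in the C57Bl6, 72.7 CPM in the constitutive, 4.78 CPM in the inducible and 0.214, 0.0438 and 0.0477 CPM in the naive libraries. RAG2KO replicate 2 stood apart from the other tumour-derived libraries. It held 21 of the tested genes (0.153%) at 5 CPM or more and at least 10 times every other tumour-derived library, among them Sparc, Ibsp and Serpine2, against 0 to 6 genes in each of the other 5. The share of counts from the ribosomal precursor Rn45s was 6.56 to 8.54% for RAG2KO, 2.21 to 3.77% for C57Bl6 and 2.42 to 4.99% for naive libraries. It was 6.4% in the constitutive and 3.71% in the inducible line.

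Every library was epithelial by its markers. All 19 epithelial markers were at 1 CPM or more in each, with a summed level of 14570 to 15740 CPM in the RAG2KO, 13720 to 16680 CPM in the C57Bl6, 9041 CPM in the constitutive, 11840 CPM in the inducible and 13590 to 15970 CPM in the naive libraries. Some differed from naive organoids by edgeR at an adjusted p under 0.05. In RAG2KO organoids 2 of the 19 were higher and 5 lower (all tested genes: 16.0% and 13.3%). In C57Bl6 organoids 3 were higher and 4 lower (9.50% and 5.85%). In the SOX17OE lines 1 was higher and 8 lower (6.77% and 5.92%), and none was called without the constitutive line. The 14 fibroblast markers summed to 0.202, 9.64 and 0.686 CPM in the RAG2KO, 2.17 to 4.30 CPM in the C57Bl6, 6.80 CPM in the constitutive, 0.758 CPM in the inducible and 0.786 to 0.876 CPM in the naive libraries. In RAG2KO replicate 2 most of that sum was Col3a1 (7.07 CPM) and Dcn (1.28 CPM). Of the other markers there, Cd34 was at 0.350, Col6a3 at 0.292, Pdgfra and Col1a1 at 0.175 each, Col1a2 at 0.117 and Pdgfrb, Lum and Pdpn at 0.0584 CPM each, and Thy1, Dpt, Postn and Fap were at 0. That library thus had 4 of the 14 markers at 0, against 11 in RAG2KO replicate 1 and 8 in RAG2KO replicate 3, and Cd34, Col6a3, Col1a2 and Pdgfrb were at 0 in both of these. In the C57Bl6 libraries the leading marker was Pdpn (1.26 to 3.46 CPM), and in the constitutive line Col3a1 (5.24 CPM). Smooth muscle markers summed to at most 3.87 CPM and lymphocyte markers to at most 0.449 CPM in any library. The myeloid sum of 31.0 to 85.0 CPM was mostly Cd14, with Tyrobp, C1qa and C1qb at 0 in each library. The endothelial sum was 49.0 CPM in the constitutive line, 26.0 CPM of it Tek, and 10.4 to 18.2 CPM in the other libraries.

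**Figure D1:**
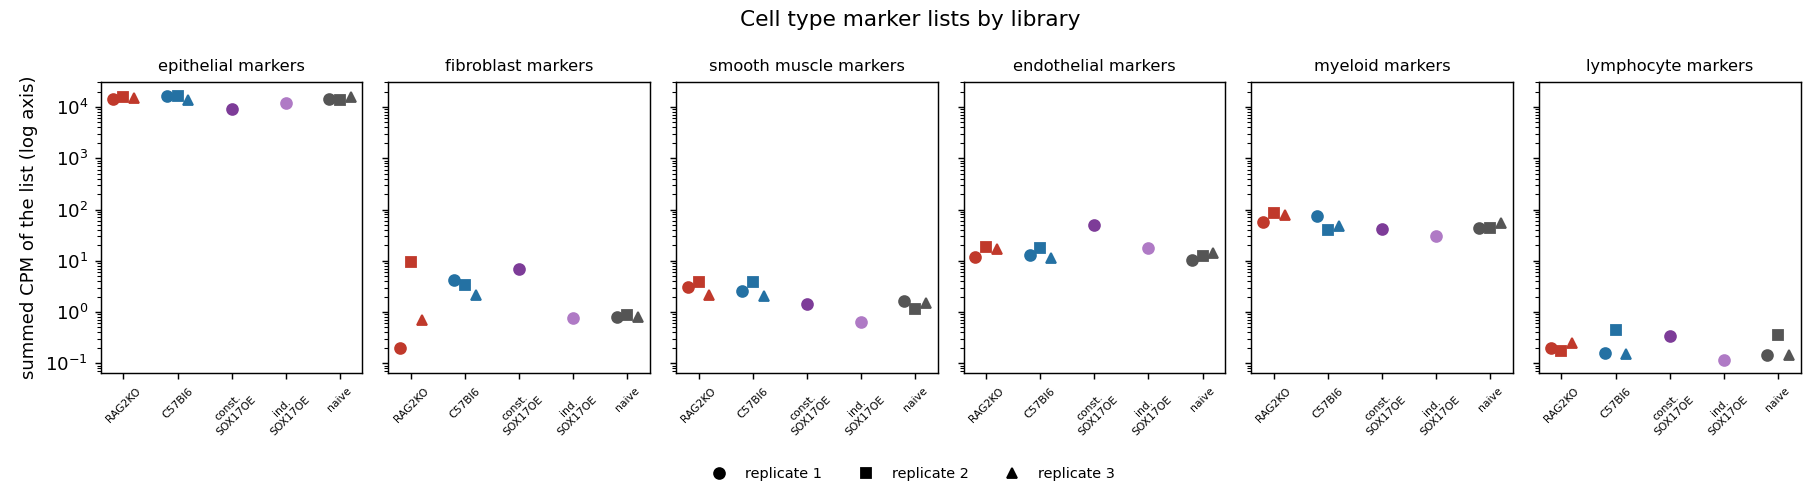
Summed CPM of 6 cell type marker lists (log axis) in each library, by group from left to right, with the replicate number as the marker shape. The lowest epithelial sum is 9041 CPM, and the highest fibroblast sum is the 9.64 CPM of RAG2KO replicate 2.

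Fn1 encodes fibronectin, the glycoprotein that joins collagen and integrins. It had 59.6, 258 and 55.3 CPM in the RAG2KO, 70.4, 217 and 87.5 CPM in the C57Bl6, 15.4 CPM in the constitutive, 4.90 CPM in the inducible and 3.50, 2.63 and 2.72 CPM in the naive libraries. All 6 tumour-derived libraries were above every SOX17OE and naive library, and the 2 recipients overlapped. The fitted log2 difference from naive organoids was 5.41 (SE 0.76) in RAG2KO and 5.42 (SE 0.76) in C57Bl6 organoids. It was 4.30 in RAG2KO organoids without replicate 2, and the ratio of summed counts in C57Bl6 organoids was 42.6, or 27.5 without their replicate 2. An exon of Fn1 overlaps Apol7d on the opposite strand in GENCODE vM21, and whether the counting used strand is not stated in the labels, so a share of these reads is uncertain.

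Efemp1, a fibulin that binds elastic fibre and basement membrane proteins, was a gene of one recipient. It had 0.0674, 0 and 0 CPM in the RAG2KO, 13.2, 4.21 and 1.57 CPM in the C57Bl6, 0 CPM in both SOX17OE and 0, 0.0877 and 0.0477 CPM in the naive libraries. The C57Bl6 libraries alone were above the floor. Their ratio to the 3 naive counts was 121 (95% counting interval 41.2 to 591, 54.3 without C57Bl6 replicate 1 and 220 without naive replicate 2). The RAG2KO group held a single count. In bulk RNA, fewer cells that express a gene and less of its RNA per cell cannot be told apart.

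Sparc and Ibsp are known from bone. Sparc encodes osteonectin, a collagen-binding matricellular protein, and Ibsp encodes bone sialoprotein, an integrin ligand that nucleates mineral. Sparc had 0, 8.70 and 0 CPM in the RAG2KO, 0.314, 0.393 and 0.202 CPM in the C57Bl6, 1.10 CPM in the constitutive, 0.525 CPM in the inducible and 0, 0.0438 and 0.0953 CPM in the naive libraries. Ibsp had 1.21, 15.8 and 0.0624 CPM in the RAG2KO, 0.0524, 0.561 and 0.404 CPM in the C57Bl6, 0 CPM in the constitutive, 0.0583 CPM in the inducible and 0 CPM in all naive libraries. For both genes the high value was RAG2KO replicate 2, and neither reached 1 CPM in a C57Bl6 library. That library held all RAG2KO counts of Sparc and 92.5% of the summed RAG2KO CPM of Ibsp. Ibsp was at least 35.0-fold above the naive floor of 3 counts per library in RAG2KO and at least 2.08-fold in C57Bl6 organoids. Without RAG2KO replicate 2 the first bound was 3.91.

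The promoters of the 3 members that were high in RAG2KO replicate 2 are shown so that their letters can be compared. They are RefSeq sequences on GRCm38.p6, 300 bases each, around the annotated start, 5′ to 3′ on the strand of the gene. Capitals mark the core of SOX binding sites, searched as ACAAT on either strand (ATTGT on the other), since SOX17 was overexpressed in this study. They come from chr5:104299037-104299336 on the plus strand for Ibsp, chr11:55420031-55420330 on the minus strand for Sparc and chr1:79858616-79858915 on the minus strand for Serpine2.
Ibsp: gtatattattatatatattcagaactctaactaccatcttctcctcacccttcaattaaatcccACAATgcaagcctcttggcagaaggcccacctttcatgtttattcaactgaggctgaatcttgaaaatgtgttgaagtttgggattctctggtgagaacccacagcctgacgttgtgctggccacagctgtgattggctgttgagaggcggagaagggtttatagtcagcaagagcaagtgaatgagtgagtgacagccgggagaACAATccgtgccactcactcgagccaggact
Sparc: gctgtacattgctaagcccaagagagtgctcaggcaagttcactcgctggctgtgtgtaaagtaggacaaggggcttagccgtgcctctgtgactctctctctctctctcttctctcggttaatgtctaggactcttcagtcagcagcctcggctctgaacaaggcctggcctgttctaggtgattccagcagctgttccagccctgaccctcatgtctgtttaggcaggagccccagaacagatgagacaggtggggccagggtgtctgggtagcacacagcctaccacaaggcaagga
Serpine2: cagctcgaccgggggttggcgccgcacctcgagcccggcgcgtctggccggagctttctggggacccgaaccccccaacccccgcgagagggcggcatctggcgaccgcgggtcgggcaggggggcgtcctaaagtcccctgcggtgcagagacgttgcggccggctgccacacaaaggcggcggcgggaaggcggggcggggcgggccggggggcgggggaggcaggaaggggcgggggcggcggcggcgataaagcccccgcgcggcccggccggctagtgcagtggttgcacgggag
Ibsp held 2 SOX cores, at bases 65 to 69 and 270 to 274 of the window, and the other 2 promoters held none. Of 32544 promoters of this length, 30.8% held at least 1. The Serpine2 promoter was 77.7% G and C, against 55.3% for Sparc and 46.3% for Ibsp. A TATA box (TATAAA on either strand), which 13.6% of promoters held, was found in Ibsp, and in Vim among the other members. The AP-1 motif TGANTCA (7.8% of promoters) was found in Efemp1, and CATTCC, the TEAD motif (14.6%), in none of the 7 member promoters in the RefSeq table. These matches are descriptions of letters, and these libraries measured no binding.

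Mgp encodes matrix Gla protein, a vitamin K-dependent inhibitor of calcification. It had 247, 631 and 331 CPM in the RAG2KO, 5.66, 3.70 and 10.4 CPM in the C57Bl6, 193 CPM in the constitutive, 96.4 CPM in the inducible and 4.79, 6.0 and 4.10 CPM in the naive libraries. The 3 RAG2KO libraries were the highest, both SOX17OE libraries came next, and the C57Bl6 and naive libraries overlapped. Per kilobase of its longest annotated transcript (GENCODE vM21), Mgp had the highest level of the 10 genes in RAG2KO organoids, 345 to 883 CPM per kilobase, against 6.65 to 31.0 CPM per kilobase for Fn1. Its fitted log2 difference from naive organoids was 6.34 (SE 0.50) in RAG2KO and 0.41 (SE 0.44) in C57Bl6 organoids.

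2 members are serpins with different jobs. Serpinh1 encodes HSP47, a chaperone that folds procollagen in the endoplasmic reticulum, and Serpine2 encodes protease nexin-1, a secreted inhibitor of thrombin and plasminogen activators. Serpinh1 had 1.75, 17.1 and 2.87 CPM in the RAG2KO, 31.6, 19.5 and 1.97 CPM in the C57Bl6, 0.0576 CPM in the constitutive, 0.525 CPM in the inducible and 0 CPM in all naive libraries. It was the one gene here that lacked any naive count and reached 1 CPM in all 6 tumour-derived libraries. It was at least 44.3-fold above the naive floor in RAG2KO (14.2-fold without replicate 2) and at least 108-fold in C57Bl6 organoids (65.8-fold without replicate 1). Serpine2 had 0.270, 50.7 and 0.312 CPM in the RAG2KO, 0.576, 0.224 and 0.101 CPM in the C57Bl6, 0 CPM in the constitutive, 0.291 CPM in the inducible and 0.0715, 0 and 0 CPM in the naive libraries. RAG2KO replicate 2 held 98.9% of the summed RAG2KO CPM, and every other library was under 1 CPM. Against the single naive count the RAG2KO ratio was 1060 (95% counting interval 189 to 41800), and without RAG2KO replicate 2 it was 16.8 (2.33 to 738). Without naive replicate 1, which held that count, it was at least 125.

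Ptn encodes pleiotrophin, a secreted heparin-binding growth factor that signals through the receptor phosphatase PTPRZ1 and syndecans. It had 8.83, 38.5 and 13.7 CPM in the RAG2KO, 0.0524, 0.449 and 1.01 CPM in the C57Bl6, 154 CPM in the constitutive, 25.8 CPM in the inducible and 10.6, 8.02 and 3.72 CPM in the naive libraries. The naive libraries were all above the C57Bl6 libraries, and the RAG2KO and naive libraries overlapped. The fitted log2 difference from naive organoids was 1.47 (SE 0.62) in RAG2KO and -3.84 (SE 0.82) in C57Bl6 organoids (ratio 0.0723, and 0.0345 without C57Bl6 replicate 3). Without RAG2KO replicate 2 the first value was 0.61. Ptn was above the highest naive library in 2 RAG2KO libraries and in no C57Bl6 library. Its promoter, shown because Ptn differed between the recipients and in the SOX17OE lines, lies at chr6:36810130-36810429 on the minus strand and held no SOX core.
Ptn: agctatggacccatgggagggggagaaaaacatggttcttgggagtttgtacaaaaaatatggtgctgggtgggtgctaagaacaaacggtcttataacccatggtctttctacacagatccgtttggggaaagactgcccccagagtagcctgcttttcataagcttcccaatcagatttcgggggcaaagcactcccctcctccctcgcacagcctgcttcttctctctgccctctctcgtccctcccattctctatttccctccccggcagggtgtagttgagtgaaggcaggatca

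Vim encodes vimentin, the intermediate filament of mesenchymal cells. It had 7.82, 140 and 31.7 CPM in the RAG2KO, 17.9, 6.28 and 13.3 CPM in the C57Bl6, 59.1 CPM in the constitutive, 20.1 CPM in the inducible and 8.72, 12.6 and 6.01 CPM in the naive libraries. Each tumour-derived group overlapped the naive libraries. The fitted log2 difference from naive organoids was 2.72 (SE 0.87) in RAG2KO, 1.12 without its replicate 2, and 0.46 (SE 0.84) in C57Bl6 organoids. Scara3 encodes a class A scavenger receptor of cellular membranes that is induced by oxidative stress. It had 0.944, 6.19 and 1.75 CPM in the RAG2KO, 40.0, 20.5 and 9.45 CPM in the C57Bl6 and 0 CPM in both SOX17OE and all 3 naive libraries. Here every C57Bl6 library was above every RAG2KO library. Scara3 was at least 18.2-fold above the naive floor in RAG2KO (8.25-fold without replicate 2) and at least 143-fold in C57Bl6 organoids (92.0-fold without replicate 1).

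Over the 110 values of the 10 genes in 11 libraries, 61 were at 1 CPM or more. Fn1, Mgp, Serpinh1 and Vim reached 1 CPM in all 6 tumour-derived libraries, Scara3 in 5, Ptn in 4, Efemp1 in 3, Ibsp in 2, and Sparc and Serpine2 in 1. All 6 tumour-derived libraries were above the highest naive library for Fn1, Ibsp, Serpinh1, Serpine2 and Scara3. For Ibsp this included 1 count each in RAG2KO replicate 3 and C57Bl6 replicate 1, and for Serpine2 2 counts in C57Bl6 replicate 3, so above the floor of 3 counts were 4 libraries for Ibsp and 5 for Serpine2. The number above the highest naive library was 4 for Sparc, Mgp and Vim, 3 for Efemp1 and 2 for Ptn.

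**Figure D2:**
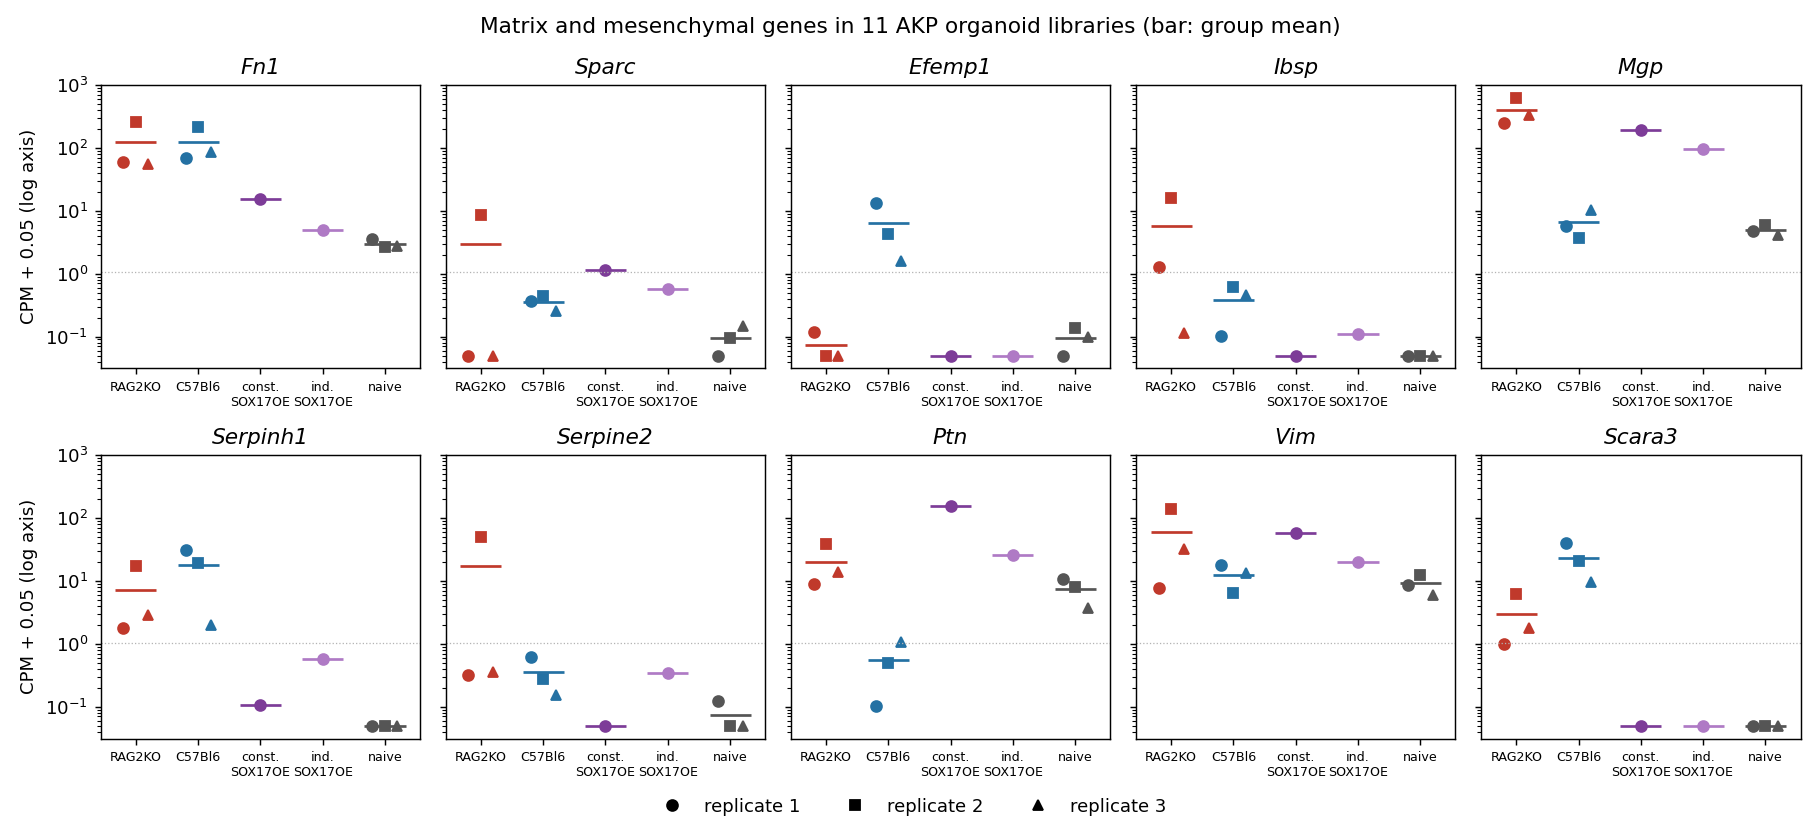
CPM plus 0.05 (log axis) of the 10 genes in the 11 libraries, 1 panel a gene. Groups run from RAG2KO on the left to naive on the right, the short bar is the group mean, the marker shape gives the replicate, and the dotted line stands at 1 CPM. Mgp and Ptn are high in RAG2KO and SOX17OE and low in C57Bl6 libraries, Efemp1 and Scara3 are highest in C57Bl6 libraries, and Sparc, Ibsp and Serpine2 are high in RAG2KO replicate 2.

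The comparison of the recipients asks whether growth in an immunodeficient or an immunocompetent mouse went with different levels. Between RAG2KO and C57Bl6 organoids, 2 of the 10 genes were higher in RAG2KO, Mgp and Ptn, and 2 were lower, Efemp1 and Scara3. Over all 13720 tested genes, edgeR's quasi-likelihood test at a Benjamini-Hochberg adjusted p under 0.05 called 24.0%, 11.8% higher and 12.2% lower in RAG2KO. The median log2 fold change was 2.75 over the 10 genes and -0.0011 over all tested genes. It turned sign without RAG2KO replicate 2, to -0.34 over the 10 genes with Sparc at its bound and Efemp1 at its counting ratio (-0.58 with fitted values), and was 2.67 to 3.30 without any other RAG2KO or C57Bl6 library. The rule did not use this contrast, but it used the same tumour-derived libraries. Efemp1 had 357 counts over the C57Bl6, 1 over the RAG2KO, 0 over the SOX17OE and 3 over the naive libraries. It passed the filter on low counts only through the C57Bl6 libraries, so it could be called lower but not higher in RAG2KO.

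Mgp, the calcification inhibitor, averaged 403 ± 202 CPM in RAG2KO and 6.57 ± 3.42 CPM in C57Bl6 organoids (SD, n = 3 each). Its log2 fold change in edgeR's quasi-likelihood test was 5.93 (SE 0.49, adjusted p = 0.001). Ptn, the growth factor, averaged 20.3 ± 15.9 CPM in RAG2KO and 0.504 ± 0.481 CPM in C57Bl6 organoids (SD, n = 3 each). The same test gave it a log2 fold change of 5.30 (SE 0.82, adjusted p = 0.00395). For both genes all 3 RAG2KO libraries were above all 3 C57Bl6 libraries. Without RAG2KO replicate 2, edgeR gave log2 fold changes of 5.45 for Mgp (adjusted p = 4.08e-04) and 4.45 for Ptn (adjusted p = 0.00851). The ratio of summed counts was 41.1 for Ptn, 22.2 without that library and 86.2 without C57Bl6 replicate 3.

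Efemp1, the fibulin, averaged 0.0225 ± 0.0389 CPM in RAG2KO and 6.31 ± 6.07 CPM in C57Bl6 organoids (SD, n = 3 each; edgeR adjusted p = 0.00343). With 1 count over the RAG2KO group the ratio of RAG2KO to C57Bl6 was 0.00331 (95% counting interval 8.36e-05 to 0.0186). It was 0.00739 without C57Bl6 replicate 1, 0.00515 without RAG2KO replicate 2, 0.00497 without RAG2KO replicate 3, and at least 34.8-fold lower against the floor without RAG2KO replicate 1, which held the count. Scara3, the scavenger receptor, averaged 2.96 ± 2.83 CPM in RAG2KO and 23.3 ± 15.5 CPM in C57Bl6 organoids (SD, n = 3 each). Its log2 fold change was -2.97 (SE 0.78, edgeR adjusted p = 0.0333), -4.10 without RAG2KO replicate 2 and -2.33 without C57Bl6 replicate 1. The Scara3 call was lost without C57Bl6 replicate 1, RAG2KO replicate 1 or RAG2KO replicate 3, with edgeR adjusted p = 0.07, 0.0754 and 0.0927, and without the filter on low counts (0.0763).

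The other 6 genes did not pass. Fn1 had nearly equal means of 124 ± 116 CPM in RAG2KO and 125 ± 80.1 CPM in C57Bl6 organoids (SD, n = 3 each; log2 fold change -0.0062, SE 0.60, edgeR adjusted p = 0.997), with a sign that turned with the scaling. The Fn1 ratio of summed counts was 1.05, 0.469 without RAG2KO replicate 2 and 1.63 without C57Bl6 replicate 2. Serpinh1, the collagen chaperone, had a log2 fold change of -1.29 (SE 1.08, edgeR adjusted p = 0.414), and its ratio of summed counts was 0.435, 0.134 without RAG2KO replicate 2 and 0.739 without C57Bl6 replicate 1. Serpine2 had 5.80 (SE 1.87, adjusted p = 0.0506), Ibsp 4.05 (SE 1.63, adjusted p = 0.11), Sparc 3.24 (SE 1.67, adjusted p = 0.18) and Vim 2.26 (SE 0.85, adjusted p = 0.0808). These 4 positive values rested on RAG2KO replicate 2, since without it the log2 fold changes were -0.04 for Serpine2 (adjusted p = 0.98), 0.89 for Ibsp and 0.66 for Vim. Sparc, with 0 counts in the 2 RAG2KO libraries then left, was at least 1.56-fold lower against the floor (adjusted p = 0.0484). Serpine2 passed under upper quartile scaling (adjusted p = 0.0499), under library totals (0.0495) and without RAG2KO replicate 1 (0.0295) or 3 (0.0329). Vim passed without RAG2KO replicate 1 (0.0214), and Ibsp without RAG2KO replicate 3 (0.0455). The fibroblast sum of 9.64 CPM moved with these 4 genes in that library, and its part in them was not tested.

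**Figure D3:**
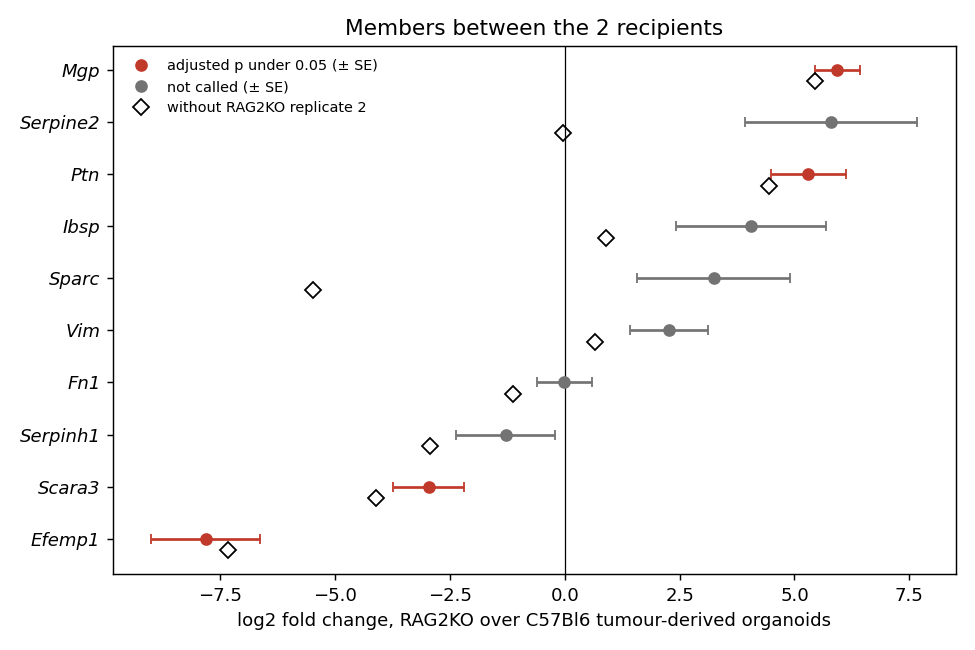
Log2 fold change of RAG2KO over C57Bl6 tumour-derived organoids for the 10 genes (points ± SE from edgeR), with open diamonds for the fit without RAG2KO replicate 2. Mgp and Ptn lie above 4 and Efemp1 and Scara3 below -2 in both fits, Serpine2 and Sparc change sign, and the fitted Efemp1 and Sparc values depend on the prior count.

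SOX17 is a transcription factor of endoderm and vessels, and the SOX17OE lines carried its construct without growth in a mouse. No library had an empty construct, so SOX17 and the lentivirus itself cannot be told apart in this comparison. The lines had no part in choosing the genes, but the low naive counts did. Members near 0 in naive organoids could not be called lower. The lack of lower genes and the sign of the medians were thus in part fixed by that choice. Of the 10 genes, 2 were higher in the mean of the SOX17OE lines than in naive organoids, Mgp and Ptn, and none was lower. Over all tested genes edgeR called 12.7%, 6.77% higher and 5.92% lower. The median fitted log2 fold change was 1.77 over the 10 members and -0.0070 over all tested genes. Efemp1, Ibsp and Scara3 had no fold of their own, since both groups were at or under the floor. Over the other 7, taken at the bound or counting ratio where counts were few, the median was 3.07, which was the value of Serpine2, with a ratio of 8.37 from 5 counts in the inducible line against 1 naive count (95% counting interval 0.937 to 396). That median was 1.80 without the constitutive line and 4.38, over 5 members, without the inducible line.

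Mgp averaged 145 ± 68.3 CPM in the SOX17OE lines (SD, n = 2) and 4.96 ± 0.964 CPM in naive organoids (SD, n = 3). Its log2 fold change was 4.77 (SE 0.48, edgeR adjusted p = 0.00151). With the inducible line alone it was 4.27 (adjusted p = 0.0131). Ptn averaged 89.7 ± 90.3 CPM in the lines (SD, n = 2) and 7.44 ± 3.47 CPM in naive organoids (SD, n = 3), with a log2 fold change of 3.09 (SE 0.68, edgeR adjusted p = 0.0227). Both lines were above all 3 naive libraries for Mgp and for Ptn. The Ptn call rested on the constitutive line, without which the log2 fold change was 1.80 (adjusted p = 0.299). It was also lost without naive replicate 2 or 3, without the filter, and in a fit of these 5 libraries alone (edgeR adjusted p from 0.0566 to 0.0842). Sox17 itself was at 4.78 CPM in the inducible line, under its level in each tumour-derived library.

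Fn1 (log2 fold change 1.57, SE 0.78, edgeR adjusted p = 0.207) and Vim (1.92, SE 0.92, adjusted p = 0.191) were above the naive range in both lines but did not pass. Without the constitutive line the ratio of summed counts was 1.70 for Fn1, against 3.54 with both lines, and 2.17 for Vim, against 4.29. Without the inducible line it was 5.36 for Fn1. Sparc had 28 counts over both lines against 3 over the naive libraries, a ratio of 15.6 (95% counting interval 4.83 to 80.3; edgeR adjusted p = 0.287, and 0.0291 without RAG2KO replicate 2). The ratio was 29.9 without naive replicate 3 and 10.1 without the constitutive line. Serpinh1 was at least 1.79-fold above the naive floor, with 10 counts over both lines (edgeR adjusted p = 0.517). The inducible line held 9 of the 10 counts. The bound was 3.22-fold with that line alone, and without it Serpinh1 had no fold, both groups being at or under the floor. Efemp1, Ibsp, Serpine2 and Scara3 had 0, 1, 5 and 0 counts over both lines. Scara3 and Efemp1, the 2 genes called lower in RAG2KO than in C57Bl6 organoids, thus had no count in either line, and Mgp and Ptn, the 2 called higher, were above every C57Bl6 library in both lines.

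The 10 genes did not vary as one group. Over 11 libraries the Pearson r of log2(CPM + 0.5) between 2 members ranged from -0.826 to 0.932 over the 45 pairs, with a median of 0.452, and over the 6 tumour-derived libraries from -0.938 to 0.977, with a median of 0.401. These values are descriptions over libraries that share groups and scaling, and those of sparse genes rest on few counts. Mgp and Ptn went together (0.715 over 11 and 0.977 over 6 libraries). Efemp1 and Scara3 formed another pair (0.853 and 0.908), and Serpinh1 was close to Scara3 (0.932 and 0.787). Sparc with Serpine2 (0.886 and 0.972) and Ibsp with Serpine2 (0.927 and 0.919) shared their high value in RAG2KO replicate 2. Efemp1 ran against Ptn (-0.826 and -0.938) and against Mgp (-0.513 and -0.919).

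**Figure D4:**
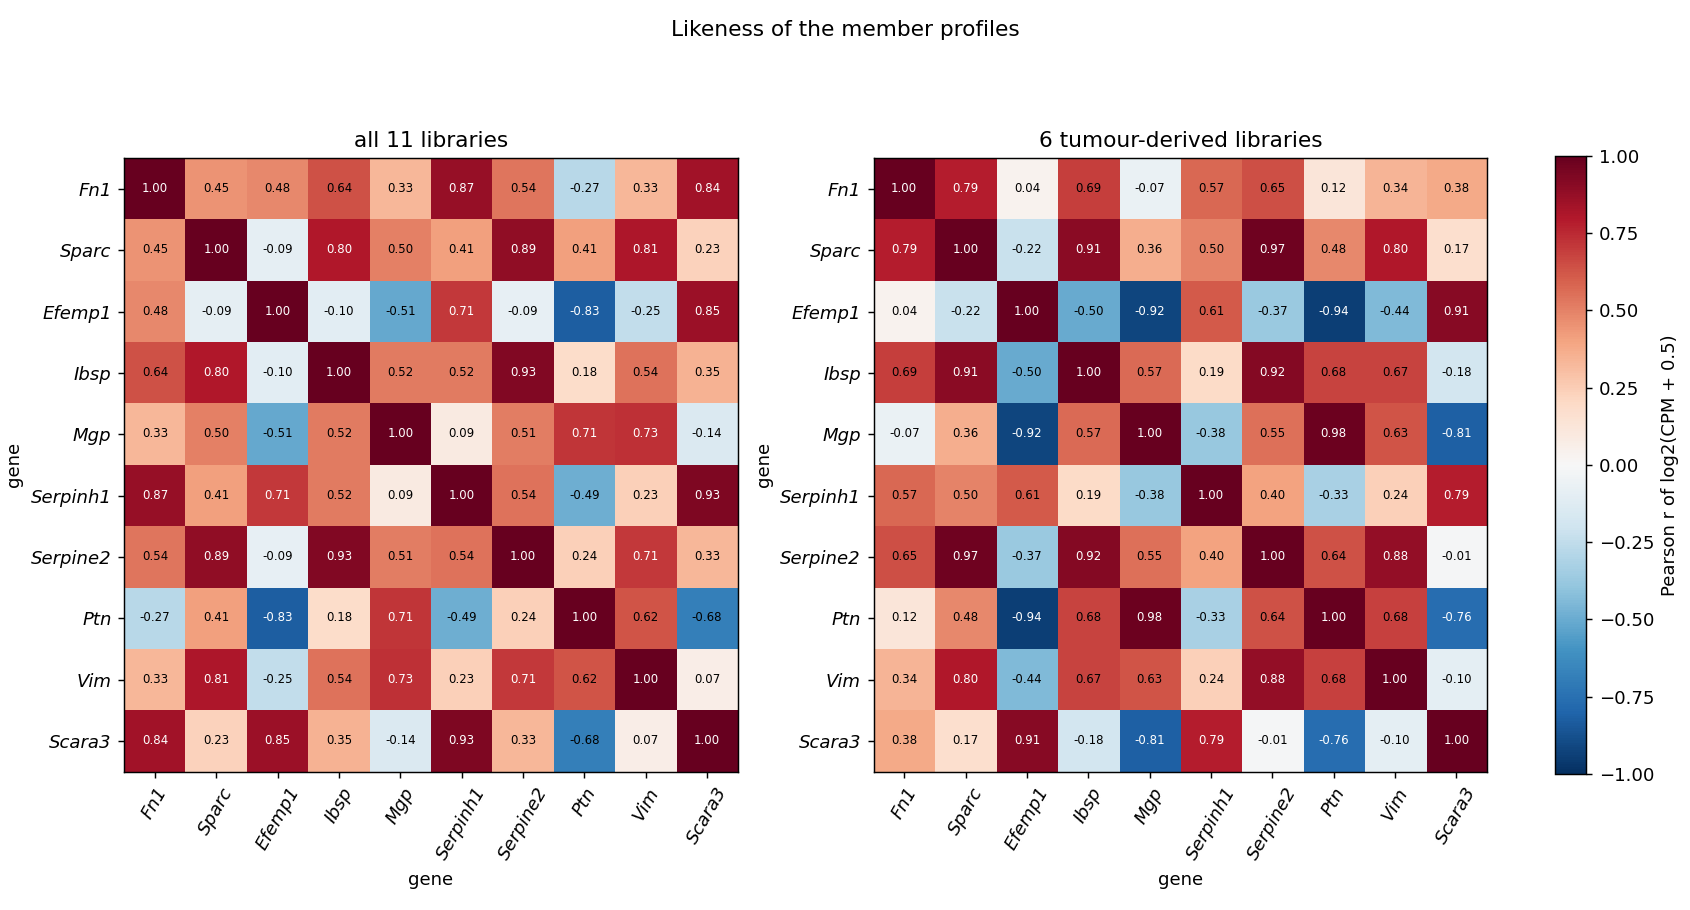
Pearson r of log2(CPM + 0.5) between each pair of the 10 genes, over all 11 libraries on the left and over the 6 tumour-derived libraries on the right. Red cells are positive and blue cells negative; Mgp with Ptn is at 0.98 and Efemp1 with Ptn at -0.94 on the right.

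Among 11121 other genes with at least 5 CPM in one library, the gene most like each member over the 11 libraries was Tff1 for Fn1 (r = 0.986), Leprot for Mgp (0.993) and Dapl1 for Ptn (0.968). For Scara3 it was Angptl4 (0.983), followed by Tgfb3 (0.974), a ligand of the TGF-beta family. For Efemp1 it was Cybrd1 (0.963), and for Serpinh1 the first 2 were D18Ertd653e and Hpn (0.957 each). For the genes high in RAG2KO replicate 2 they were Igf1 (0.983) and Sox2 (0.981) for Serpine2, Adh7 (0.975) for Sparc and Penk (0.967) for Ibsp. Vim was nearest to Ccdc109b (0.914), with the chromatin protein gene Hmga2 close behind (0.899).

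Related genes outside the 10 were counted in 11 lists. The shares called over all tested genes were 29.2% in RAG2KO over naive organoids (16.0% higher, 13.3% lower) and 15.3% in C57Bl6 over naive organoids (9.50% higher, 5.85% lower), and the medians of all tested genes lay within 0.03 of 0 on the log2 scale. The 2 comparisons share the naive libraries. List genes near 0 in naive organoids, such as Ntn4, passed the filter on low counts only through libraries where they were high. Such genes could be called higher but not lower, so the list counts and medians over naive organoids are descriptions. Of 41 tested matrix glycoproteins, 11 were higher and 2 lower in RAG2KO, and 13 were higher and none lower in C57Bl6 over naive organoids, with medians of 1.96 and 1.62 (log2). Thbs1, encoding thrombospondin-1, averaged 170 ± 64.1 CPM in RAG2KO, 182 ± 77.2 CPM in C57Bl6 and 13 ± 2.44 CPM in naive organoids (log2 fold changes over naive of 3.71 in RAG2KO and 3.81 in C57Bl6, edgeR adjusted p = 5.58e-04 and 5.38e-04). Ntn4, encoding a netrin of basement membranes, averaged 5.31 ± 3.54 CPM in RAG2KO, 5.05 ± 2.11 CPM in C57Bl6 and 0.109 ± 0.0300 CPM in naive organoids. Of 15 tested proteoglycans, 4 were higher in RAG2KO and 3 in C57Bl6 over naive organoids, and none was lower. Hspg2, encoding perlecan, averaged 11.6 ± 4.91 CPM in RAG2KO, 59.7 ± 11 CPM in C57Bl6 and 0.268 ± 0.171 CPM in naive organoids (log2 fold changes 5.44 in RAG2KO and 7.80 in C57Bl6 over naive).

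The collagen-processing genes, the partners of Serpinh1, had 6 of 24 tested higher and 1 lower in RAG2KO and 7 higher and 1 lower in C57Bl6 over naive organoids. Bmp1, encoding the procollagen C-proteinase, averaged 6.22 ± 4.79 CPM in RAG2KO, 5.24 ± 2.66 CPM in C57Bl6 and 0.664 ± 0.0957 CPM in naive organoids. Of 9 tested genes of bone matrix and Gla proteins, 5 were higher in RAG2KO and 4 in C57Bl6 over naive organoids, and none was lower. Spp1, encoding osteopontin and related to Ibsp, averaged 523 ± 323 CPM in RAG2KO, 1130 ± 688 CPM in C57Bl6 and 36.3 ± 11.3 CPM in naive organoids (log2 fold changes 3.85 in RAG2KO and 4.96 in C57Bl6 over naive). Enpp1, which makes the mineralisation inhibitor pyrophosphate, averaged 21.7 ± 6.23 CPM in RAG2KO, 28.8 ± 7.19 CPM in C57Bl6 and 4.15 ± 0.947 CPM in naive organoids.

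Among 20 tested extracellular serine proteases and inhibitors, the list around Serpine2, 8 were higher and 1 lower in RAG2KO and 6 higher and none lower in C57Bl6 over naive organoids. Plau, encoding urokinase, averaged 50.7 ± 23.5 CPM in RAG2KO, 56.6 ± 1.15 CPM in C57Bl6 and 5.42 ± 0.550 CPM in naive organoids (log2 fold changes 3.22 in RAG2KO and 3.38 in C57Bl6 over naive). Of 10 tested genes of the pleiotrophin pathway, 4 were higher and 2 lower in RAG2KO and 3 higher in C57Bl6 over naive organoids. Nrp1, encoding a receptor that also binds pleiotrophin, averaged 3.84 ± 1.66 CPM in RAG2KO, 15.1 ± 7.89 CPM in C57Bl6 and 0.0597 ± 0.0666 CPM in naive organoids.

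Of 18 tested genes of the mesenchymal cytoskeleton, the list around Vim, 7 were higher and 3 lower in RAG2KO and 7 higher and none lower in C57Bl6 over naive organoids. Cnn3, encoding an actin-binding calponin, averaged 377 ± 11 CPM in RAG2KO, 307 ± 65.2 CPM in C57Bl6 and 69.1 ± 24.4 CPM in naive organoids (log2 fold changes 2.45 in RAG2KO and 2.15 in C57Bl6 over naive). Lgals1, encoding galectin-1, averaged 228 ± 214 CPM in RAG2KO, 228 ± 57.9 CPM in C57Bl6 and 17.3 ± 7.03 CPM in naive organoids (log2 fold changes over naive of 3.72 in RAG2KO and 3.73 in C57Bl6). Of 12 tested mesenchymal transcription factors, 3 were higher in each comparison. They included Twist1, at 10.6 ± 15.8 CPM in RAG2KO, 10.6 ± 5.27 CPM in C57Bl6 and 0.265 ± 0.184 CPM in naive organoids. Its calls were lost without any 1 of the naive libraries and without the filter on low counts. The C57Bl6 call was also lost without C57Bl6 replicate 2 or 3. Of 8 tested cadherins none was higher, and 2 were lower in RAG2KO and 1 in C57Bl6 over naive organoids, Cdh4 in both and Cdh1 in RAG2KO. Among 22 tested matrix receptors, 3 were higher and 4 lower in RAG2KO and 4 higher and 1 lower in C57Bl6 over naive organoids. Among 9 tested scavenger receptors, 3 were higher and 1 lower in RAG2KO and 2 higher and 1 lower in C57Bl6 over naive organoids.

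The median log2 fold changes of the other lists in RAG2KO over naive organoids were 0.79 for proteoglycans, 0.33 for collagen processing, 1.01 for bone matrix and Gla proteins, 0.36 for serine proteases and inhibitors, 0.50 for the pleiotrophin pathway and 0.98 for the cytoskeleton. They were 2.31 for transcription factors, -0.23 for cadherins, 0.62 for matrix receptors and 2.41 for scavenger receptors. In C57Bl6 over naive organoids the medians were 0.56 for proteoglycans, 0.63 for collagen processing, 0.93 for bone matrix and Gla proteins, 1.05 for serine proteases and inhibitors, 0.42 for the pleiotrophin pathway and 1.22 for the cytoskeleton. They were 0.41 for transcription factors, 0.48 for cadherins, 0.50 for matrix receptors and 0.92 for scavenger receptors.

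The counts fell with single libraries left out, and so did the calls over all genes. In RAG2KO over naive organoids 10.8% of all tested genes were called higher without RAG2KO replicate 2, 11.5% without naive replicate 1 and 8.71% without naive replicate 2, against 16.0% with all libraries. In C57Bl6 over naive organoids the shares were 8.66% without C57Bl6 replicate 1, 7.68% without C57Bl6 replicate 2, 4.88% without naive replicate 1 and 4.92% without naive replicate 2, against 9.50% with all libraries. In RAG2KO over naive organoids the lowest counts of higher genes were 10 for matrix glycoproteins and 6 for serine proteases and inhibitors (both without RAG2KO replicate 2). They were 2 for collagen processing, 5 for the cytoskeleton and 0 for matrix receptors (without naive replicate 2). Without naive replicate 1 they were 4 for bone matrix, 2 for the pleiotrophin pathway, 1 for transcription factors and 1 for scavenger receptors. Without RAG2KO replicate 2 collagen processing had 3 of 22 tested and matrix receptors 1 of 21, against 10.8% of all tested genes. Collagen processing in RAG2KO over naive organoids was thus near the background without that library, and also without naive replicate 2. In C57Bl6 over naive organoids the lowest counts were 7 for matrix glycoproteins and 0 for matrix receptors without naive replicate 2. They were 3 for collagen processing, 5 for serine proteases, 5 for the cytoskeleton, 1 for the pleiotrophin pathway and 1 for transcription factors without naive replicate 1. Bone matrix had 4 without each library in turn. Proteoglycans had 2 without C57Bl6 replicate 1 and scavenger receptors 0 without C57Bl6 replicate 2.

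**Figure D5:**
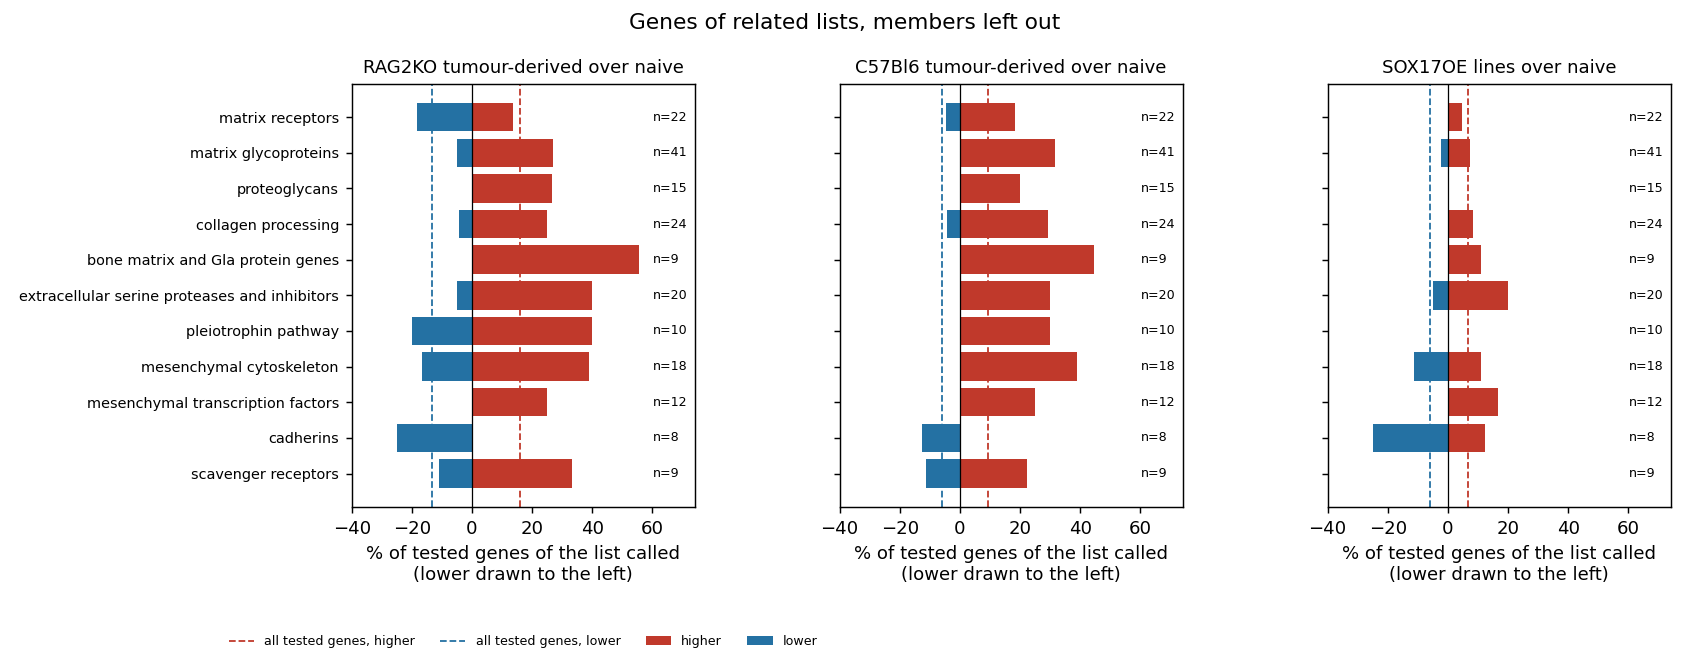
Share (%) of the tested genes of 11 related lists called higher (right, red) or lower (left, blue), with the share over all tested genes as dashed lines and the number tested as n. With all libraries, in RAG2KO and C57Bl6 over naive organoids, the matrix glycoprotein, collagen-processing, bone matrix, serine protease and cytoskeleton bars, among others, stand beyond the dashed line on the right. The collagen-processing bar of RAG2KO comes near that line without naive replicate 2. In the SOX17OE lines the proteoglycan, pleiotrophin and scavenger receptor lists have no called gene.

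Between the recipients, edgeR called 11.8% of all tested genes higher and 12.2% lower in RAG2KO. Collagen processing had none higher and 4 lower of 24, and the mesenchymal cytoskeleton none higher and 4 lower of 18. Matrix glycoproteins had 3 higher and 4 lower of 41. Their medians were -0.19, -0.12 and 0.08 on the log2 scale. Collagen processing had 1 lower gene without C57Bl6 replicate 2, the cytoskeleton 3 to 5 with 1 library left out, and matrix glycoproteins none higher without C57Bl6 replicate 3 or RAG2KO replicate 2, with 1 and 3 lower. Of all tested genes 6.69% were called higher without C57Bl6 replicate 3 and 8.30% without RAG2KO replicate 2. Bone matrix and Gla proteins had 2 higher and 2 lower of 9, the pleiotrophin pathway 2 higher and 3 lower of 10, and proteoglycans 2 higher and 1 lower of 15. With 1 library left out, the higher genes numbered 1 to 2 for bone matrix, 0 to 2 for the pleiotrophin pathway and 1 to 3 for proteoglycans. Matrix receptors had 1 higher and 2 lower of 22, serine proteases and inhibitors 1 and 1 of 20, and scavenger receptors 1 and 1 of 9. Cadherins had none higher and 1 lower of 8, and mesenchymal transcription factors no called gene of 12. Hspg2 was lower in RAG2KO than in C57Bl6 organoids (log2 fold change -2.36, SE 0.35, edgeR adjusted p = 0.00332), like Scara3 and Efemp1. Efemp2, the fibulin paralogue of Efemp1, averaged 0.494 ± 0.137 CPM in RAG2KO and 3.57 ± 2.26 CPM in C57Bl6 organoids (log2 fold change -2.83, SE 0.63, edgeR adjusted p = 0.0125). Tnfrsf11b, encoding the bone protein osteoprotegerin, averaged 607 ± 225 CPM in RAG2KO and 235 ± 81.1 CPM in C57Bl6 organoids (log2 fold change 1.37, SE 0.30, edgeR adjusted p = 0.0124). It was also higher in RAG2KO than in naive organoids (log2 fold change 1.48, SE 0.30, edgeR adjusted p = 0.00703), where the fitted value of Mgp was 6.34. Unlike Mgp, it was not raised in the SOX17OE lines. It was at 175 CPM in the constitutive and 193 CPM in the inducible line against 218 ± 44.4 CPM in naive organoids. The 2 lower genes of its list were Ank and Ggcx. Podn, a small leucine-rich proteoglycan gene, averaged 3.05 ± 1.86 CPM in RAG2KO and 0.136 ± 0.154 CPM in C57Bl6 organoids (log2 fold change 4.39, SE 0.90, edgeR adjusted p = 0.00904). Cdh1, encoding E-cadherin, averaged 310 ± 1.97 CPM in RAG2KO and 598 ± 136 CPM in C57Bl6 organoids (log2 fold change -0.95, SE 0.17, edgeR adjusted p = 0.00582). It was at 492 ± 76.1 CPM in naive organoids, 254 CPM in the constitutive and 253 CPM in the inducible line. Cdh1 was lower than naive in RAG2KO (edgeR adjusted p = 0.0178) and in the SOX17OE lines (0.0169). The first call was lost without RAG2KO replicate 2, naive replicate 2 or naive replicate 3. The second was lost without the constitutive line, naive replicate 2 or naive replicate 3.

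In the SOX17OE lines, 3 of 41 matrix glycoproteins were higher and 1 lower than in naive organoids, and 4 of 20 serine proteases and inhibitors were higher and 1 lower. Over all tested genes the shares were 6.77% higher and 5.92% lower, so the matrix glycoprotein count was near the background. Cnn3, at 179 CPM in the constitutive and 254 CPM in the inducible line against 69.1 ± 24.4 CPM in naive organoids, was called with and without each library. Thbs1 had 266 CPM in the constitutive and 72.3 CPM in the inducible line against 13 ± 2.44 CPM in naive organoids (log2 fold change 3.41, SE 0.43, edgeR adjusted p = 0.003). Its call was lost with the inducible line alone (adjusted p = 0.06), and without the constitutive line none of the 2 named lists had a called gene, with 0.493% of all tested genes called higher. Twist1 had 80.9 CPM in the constitutive and 0.991 CPM in the inducible line.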

How the data were processed

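Poly(A) RNA of 11 mouse organoid samples was sequenced after extraction with an Ambion PureLink kit and NEBNext Ultra II Directional preparation, per the labels' protocols. Reads were processed with Bowtie, RSEM and mm9, per the submitters' processing notes; versions, annotation and strand setting were not stated. The authors deposited expected counts per gene, which were rounded to whole numbers.

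Of 23224 gene names, filterByExpr kept 13720, all 10 members among them. Members and list genes near 0 in naive organoids passed through the libraries where they were high, so they could not be called lower than naive. Efemp1 passed only through the C57Bl6 libraries, so between the recipients it could not be called higher in RAG2KO. No count of members in tumour-derived over naive organoids is read. The list counts over naive organoids and the SOX17OE count of members are given with that limit. Counts were scaled by TMM and fitted with edgeR 4.0.16 (robust quasi-likelihood, R 4.3.3, limma 3.58.1) over 11 libraries in 5 groups, so each lone SOX17OE library was taken to vary as the replicated groups do. All tests were two-sided, with Benjamini-Hochberg adjustment over all tested genes and calls under 0.05. Standard errors (SE) were obtained from the log2 fold change and F. Ratios and bounds of sparse genes use counts over TMM library sizes, a floor of 3 counts per library and 95% exact intervals, which cover counting error only. The script was checked on simulated counts.

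Members, gene lists and tests were chosen with earlier results of these data known. 17 lists held 352 names, 349 of them matched, 13 by an older symbol. The rule names the members, Sox17, the 3 called genes of lowest adjusted p in each direction of each list and comparison, and the 3 genes most like each member; from these, list genes were picked for the text after their values were seen, mostly ones called under every alternative. Promoters of 7 members were matched in RefSeq. Alternatives were DESeq2 size factors, upper quartile scaling, unscaled library totals, all genes unfiltered, 1 CPM in 3 libraries as the filter, DESeq2's own Wald test (version 1.42.0), the compared groups alone, a replicate block and each library left out. A fit of naive and tumour-derived libraries without the block, and the list counts, shares of all genes called and member medians without each library, were added after seeing the data.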

Additional observations from a re-analysis of the deposited data

Results flagged for a closer look

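4 genes were marked because their difference from naive organoids was not the same in the 2 recipients, by the test of RAG2KO over C57Bl6 organoids. The log2 fold changes were 5.931 for Mgp, 5.303 for Ptn, -2.966 for Scara3 and -7.819 for Efemp1, whose fitted value depends on the prior count since its RAG2KO group held 1 count. Efemp1 passed the filter only through the C57Bl6 libraries, so it could be called lower but not higher in RAG2KO. Mgp and Ptn were also higher in the SOX17OE lines than in naive organoids, whereas Efemp1 and Scara3 had no count there. All 4 calls held without RAG2KO replicate 2, and the Scara3 call was lost without each of 3 other libraries. Rn45s took a larger share of counts in each RAG2KO library (6.56 to 8.54%) than in each C57Bl6 library (2.21 to 3.77%). Its share was 6.4% in the constitutive and 3.71% in the inducible line. The part of Rn45s in these differences was not tested.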

How the results depend on the processing

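With each library left out in turn, the calls ranged from 2041 to 4184 in RAG2KO over naive (2466 without RAG2KO replicate 2), from 1030 to 2328 in C57Bl6 over naive, from 1857 to 3311 in RAG2KO over C57Bl6 and from 85 (without the constitutive line) to 1931 in SOX17OE over naive organoids. The 10 genes gave 3 to 5 calls between the recipients and 1 to 3 in the SOX17OE lines. The 1741 SOX17OE calls were 2711 with the Wald test of DESeq2 and 864 in a fit of the compared groups alone; members called there were 1 without the filter and 1 with the compared groups alone. Fn1 between the recipients turned positive with DESeq2 size factors (0.02008), upper quartile scaling (0.07819), 1 CPM in 3 libraries (0.009366), the Wald test (0.01901), the compared groups alone (0.01657) and naive and tumour-derived libraries without a block (0.01344). Among left-out libraries Fn1 was -1.119 without RAG2KO replicate 2 and positive without C57Bl6 replicate 2 (0.6564), RAG2KO replicates 1 (0.3276) and 3 (0.3478) and naive replicate 1 (0.004842). Without RAG2KO replicate 2, fitted Sparc was -3.058 in RAG2KO over naive and -5.473 in RAG2KO over C57Bl6 organoids, and Serpine2 -0.0429 in RAG2KO over C57Bl6 organoids. The highest fitted values were 6.445 and 3.826 for Sparc (without naive replicate 3 and RAG2KO replicate 3) and 6.68 for Serpine2 (without C57Bl6 replicate 1). Fitted Serpine2 in the SOX17OE lines was -1.822 without the inducible and 3.602 without the constitutive line. The values of -3.058, -5.473 and -1.822 have 0 counts in 1 group and depend on the prior count. For -3.058 and -1.822 both groups were at or under the floor, so there was no fold. For -5.473 the bound was at least 1.56-fold lower. With a replicate block over 9 libraries, calls were 3453 in RAG2KO over naive, 1737 in C57Bl6 over naive and 2688 between the recipients, with 4 members called. Whether same-numbered libraries shared more than a number was not stated in the labels. The correlations of their deviations ran from -0.227 to 0.285, which cannot exclude a pairing. With library totals, 61 member values were at 1 CPM or more, and 66 at 0.5 CPM. The median pair correlation was 0.438 with an offset of 0.1. Depth limits the members with few counts, for which folds are bounds or counting ratios.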
